A study of Mus musculus with 8 samples.

Results

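The lost autosomal peaks were the ATAC-seq peaks of *Arid1a* WT pachytene spermatocytes on the 19 autosomes that shared no base with any peak of *Arid1a* cKO pachytene spermatocytes. They were selected on this readout, by comparing 1 deposited peak list of each genotype. There were 866 of them among 18345 autosomal WT peaks, or 4.72% (95% Wilson interval, 4.42 to 5.04), and the 2 lists held 49553 peaks in all. The other 17479 autosomal WT peaks are called common, and 12281 autosomal cKO peaks had no overlap with the WT list and are called gained. *Arid1a* WT males carried the floxed *Arid1a* allele without Cre, as fl/fl or fl/+, on a CD1 background. *Arid1a* cKO males were *Arid1a* fl/fl and carried a hemizygous *Stra8-Cre* transgene, which is expressed in spermatogonia, so that excision preceded meiosis. Excision was incomplete in the study's account, and the cKO cells therefore mixed spermatocytes without ARID1A with escapers that kept it. Each genotype was measured in 4 libraries of 100000 cells, prepared from purified and cryopreserved pachytene spermatocytes of pooled adult testes. The labels do not say whether the libraries of a genotype came from separate animals. Because the libraries of a genotype were intersected into 1 list, replicate spread is unknown for every value given here, and no difference between lost and other peaks was tested. The intervals cover counting error over peaks only, and neighbouring peaks are not independent.

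ARID1A is a DNA-binding subunit of BAF, a SWI/SNF complex that uses ATP to slide or evict nucleosomes and so opens promoters and enhancers. ATAC-seq reads open DNA through the Tn5 transposase, which inserts adapters where nucleosomes leave the sequence bare. Pachytene spermatocytes are male germ cells in the long stage of meiotic prophase in which homologous autosomes are fully synapsed and a large germ-cell transcription program runs, while X and Y are silenced. The floxed gene itself had common WT peaks at its start, with fold enrichments of 11.4, 3.38 and 5.82. A wider cKO peak with a fold of 16.2 overlapped all of them, and folds of the different lists are not compared. Since these peaks are at the start of the gene, away from the floxed exons, they are no check of the deletion.

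The sequences of 5 lost peaks are shown because they were among the strongest of unique sequence in the genome. Each is the forward strand of the mouse GRCm38 (mm10) assembly from RefSeq, in the part of the peak nearest its centre that lies outside annotated untranslated regions. Capitals mark matches on either strand to a GC box, searched as GGGCGG, or to a CCAAT box. They also mark an RFX half-site, searched as GTTGCC. An ETS site was searched as CCGGAAG. The core of the CTCF motif was searched as AGGNGGC. Each peak is named by the gene that holds its centre.
A530083I20Rik: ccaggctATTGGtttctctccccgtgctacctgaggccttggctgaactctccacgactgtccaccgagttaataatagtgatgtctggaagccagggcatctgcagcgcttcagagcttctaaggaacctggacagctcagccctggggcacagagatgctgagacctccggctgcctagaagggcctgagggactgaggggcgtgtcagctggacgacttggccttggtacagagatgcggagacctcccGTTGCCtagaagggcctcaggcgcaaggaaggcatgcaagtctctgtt
Lemd3: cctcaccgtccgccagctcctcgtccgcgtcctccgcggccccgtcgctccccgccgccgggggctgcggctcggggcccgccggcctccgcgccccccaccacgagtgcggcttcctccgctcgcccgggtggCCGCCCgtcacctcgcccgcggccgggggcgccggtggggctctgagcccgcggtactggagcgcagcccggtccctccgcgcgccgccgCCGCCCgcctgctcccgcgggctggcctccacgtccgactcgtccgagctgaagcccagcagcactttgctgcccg
Ube2q2: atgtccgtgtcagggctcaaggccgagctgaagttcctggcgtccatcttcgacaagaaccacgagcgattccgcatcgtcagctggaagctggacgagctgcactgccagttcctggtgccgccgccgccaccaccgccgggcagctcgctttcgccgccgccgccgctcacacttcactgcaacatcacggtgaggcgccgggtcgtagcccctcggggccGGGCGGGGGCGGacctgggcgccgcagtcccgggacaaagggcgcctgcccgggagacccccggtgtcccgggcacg
Mrgpra3: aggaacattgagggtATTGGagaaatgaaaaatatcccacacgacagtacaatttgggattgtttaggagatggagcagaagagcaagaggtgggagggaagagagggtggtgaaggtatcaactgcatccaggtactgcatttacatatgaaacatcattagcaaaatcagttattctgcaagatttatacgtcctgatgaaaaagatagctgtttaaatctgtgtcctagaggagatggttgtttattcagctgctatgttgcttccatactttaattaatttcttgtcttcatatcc
Aqr: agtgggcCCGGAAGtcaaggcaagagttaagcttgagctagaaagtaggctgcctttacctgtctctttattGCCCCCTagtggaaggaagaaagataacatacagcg
The stretches lay at chr9:122902996-122903295 for *A530083I20Rik*, chr10:120978648-120978947 for *Lemd3*, chr9:55149635-55149934 for *Ube2q2*, chr7:47600242-47600541 for *Mrgpra3* and chr2:114175340-114175447 for *Aqr*. The *Lemd3* and *Ube2q2* stretches had the letters of CpG islands, with 81.0% and 70.7% G or C and with 49 and 36 CG dinucleotides in 300 bases. Each of them held 2 GC boxes. The *Mrgpra3* stretch was AT-rich, with 38.7% G or C and 2 CG dinucleotides. The *Aqr* stretch, which was limited to 108 bases by the untranslated region beside it, held an ETS site, the core letters bound by ETS transcription factors at many housekeeping promoters.

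The lost peaks were weak peaks. The fold enrichment that the authors' caller gave a peak is the number of fragments stacked at its summit plus 1, divided by the background of the library plus 1. The median fold of the lost peaks was 3.38 (95% interval, 3.19 to 3.38), against 5.63 (5.63 to 5.82) for common WT peaks, and 90% of the lost peaks lay between 2.81 and 4.50. In fragments, the median lost summit held 17 and the median common summit 29, in the library that named the peaks. The weakest peak of the list held 13. Of the 92 WT peaks at this limit 23 were lost (25%; 17.3 to 34.7), and of the 437 at 14 fragments 114 were lost (26.1%; 22.2 to 30.4). The share was 14.1% at 17 fragments, 5.14% at 20 to 21 and 0.992% at 25 to 29. Among the 10105 autosomal WT peaks with a fold of 5 or more, only 26 were lost, a share of 0.257% (0.176 to 0.377). The lost share therefore fell with nearly every step of strength, as the plot of lost share by pileup shows. Fold values were compared within the WT list only, since the background recovered from their spacing differed between the lists (4.33 and 5.11 fragments per base, WT and cKO).

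**Figure D1:**
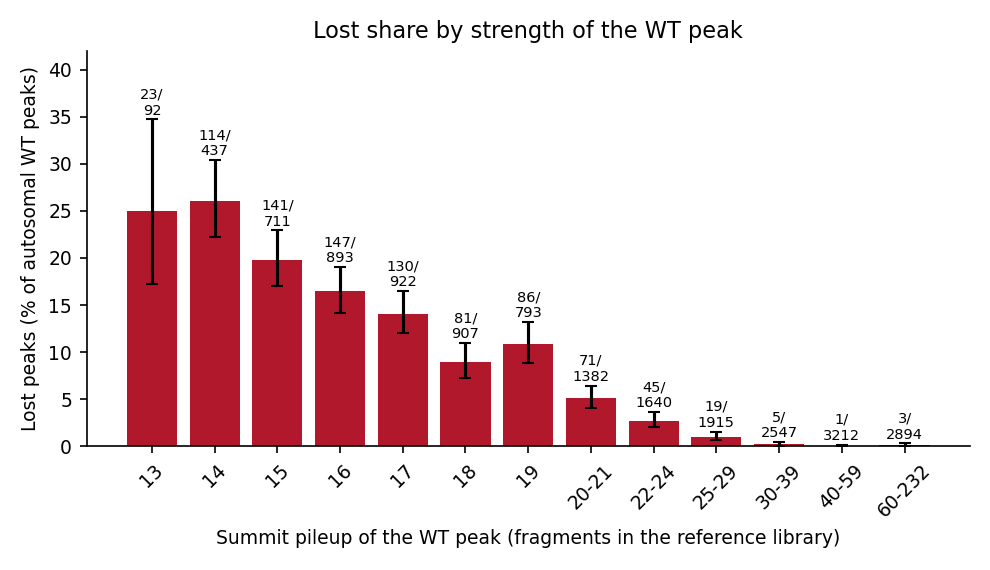
Share of autosomal WT peaks that were lost (y axis, %) by the number of fragments at the summit of the WT peak (x axis), with 95% Wilson intervals and with lost over all WT peaks printed above each bar. The share is 25% at 13 fragments and 0.992% at 25 to 29 fragments.

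The lost peaks were also those that fewer WT libraries shared. A peak fills 1 row for each overlap between a peak of the naming library and a peak of another WT library, so that 3 rows usually mean that the peak was seen in all 4. Of the lost peaks 527 (60.9%; 57.6 to 64.1) filled 1 row, 254 filled 2 and 85 (9.82%; 8.01 to 12) filled 3 or more. Common peaks filled 3 or more rows in 78.6% of cases (78.0 to 79.2). When common peaks were weighted to have the summit pileups of the lost peaks, 39.3% of them filled 3 or more rows and 26.8% filled 1. Read the other way, 27.3% of autosomal WT peaks on 1 row were lost, 9.79% of those on 2 rows and 0.615% of those on 3 or more.

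Lost peaks were narrow. Their median width was 317.5 bp (307 to 330), against 863 bp (851 to 873) for common peaks and 429 bp for common peaks weighted to the same pileups. The narrowest was 4 bp, 44 were under 50 bp and 73 were under 100 bp. The deposited intervals are the stretches shared with another library, so they can be shorter than the peak that was called. The distance from a called peak's start to its summit was at least as long as the deposited interval for 218 lost peaks (25.2%; 22.4 to 28.2) and for 706 common peaks (4.04%; 3.76 to 4.34), which shows that at least these intervals were cut.

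By position, lost peaks lay away from promoters. A promoter was taken as 1000 bp before to 100 bp after an annotated transcription start, and a peak was placed by its centre. Of the lost peaks 109 lay in a promoter (12.6%; 10.5 to 15), 113 in another exon (13%), 328 in an intron (37.9%; 34.7 to 41.2) and 316 between genes (36.5%; 33.3 to 39.7). Common peaks lay in a promoter in 49.4% of cases (48.7 to 50.2) and gained peaks in 15.9% (15.3 to 16.6). At the pileups of the lost peaks, 22.1% of common peaks lay in a promoter, so the lost peaks still held fewer. With 3000 bp on either side of a start as the promoter, the share was 36.5% (33.3 to 39.7) for lost peaks, 71.5% (70.8 to 72.2) for common peaks, 50.5% for common peaks of the same pileups and 41.2% (40.4 to 42.1) for gained peaks. Their median distance to the nearest start of any gene was 5826.5 bp (4857 to 6652), against 255 bp (244 to 266) for common peaks, 2910 bp for common peaks of the same pileups and 4531 bp (4332 to 4709) for gained peaks. Starts lay over 50 kb away for 85 lost peaks (9.82%), against 2.80% of common peaks, 4.44% of common peaks of the same pileups and 6.07% of gained peaks. Of the lost peaks in introns, 82.9% lay in protein-coding genes and 10.1% in lincRNA genes, with a protein-coding gene taken first where genes overlapped.

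**Figure D2:**
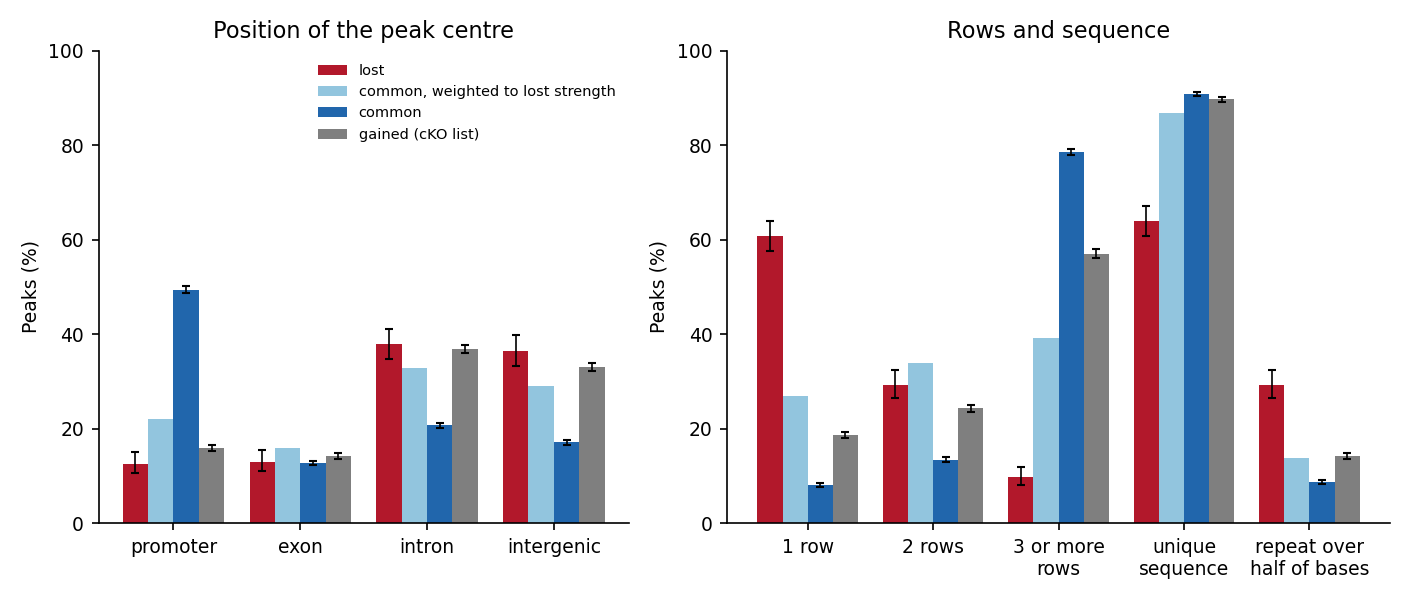
Left, share of peaks (%) with their centre in a promoter, exon, intron or intergenic sequence. Right, share of peaks on 1, 2 or 3 or more rows, of unique sequence, and with repeats over more than 50% of their bases. Bars are lost peaks, common peaks weighted to the summit pileups of the lost peaks, all common peaks and gained peaks, with 95% Wilson intervals except on the weighted bars. Lost peaks have the lowest share in promoters (12.6%), on 3 or more rows (9.82%) and of unique sequence (64%).

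Many lost peaks lay in sequence that the genome holds more than once. A peak was called unique when at least 50% of its 50-base words occurred once in the genome. A 50-base read of a repeated word can, taken alone, be placed at any of its copies. The reads were paired, and placement of a read through its mate was not taken into account. Of the lost peaks 554 were unique (64%; 60.7 to 67.1), against 90.9% (90.4 to 91.3) of common peaks, 86.8% of common peaks of the same pileups and 89.8% (89.2 to 90.3) of gained peaks. Peaks under 50 bp hold no such word and were counted as not unique. No word was unique in 125 lost peaks (14.4%), and annotated repeats covered more than 50% of the bases in 254 (29.3%; 26.4 to 32.4), against 8.65% of common peaks, 13.8% of common peaks of the same pileups and 14.2% of gained peaks. The lost share was 16.3% (14.8 to 18.1) of WT peaks that were not unique and 3.37% (3.11 to 3.66) of those that were. The 312 lost peaks outside unique sequence lay a median of 27112.5 bp from the nearest cKO peak, and the 554 unique ones 2595 bp. How far read placement set which of these peaks were lost was not tested.

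Lost peaks, like gained ones, had a lower CpG ratio than common peaks. The median lost peak was 53.0% G or C (52.3 to 53.8), against 58.1% (57.9 to 58.2) for common peaks, 54.1% for common peaks of the same pileups and 51.8% for gained peaks. Its observed to expected CpG ratio was 0.226 (0.205 to 0.246), against 0.607 (0.601 to 0.612), 0.311 and 0.266 (0.261 to 0.270), respectively. Within 300 bp around the centre, a GC box, the site of SP and KLF factors, was found on either strand in 14.5% (12.4 to 17.1) of lost peaks, 44.0% of common peaks, 22.7% of common peaks of the same pileups and 15.7% of gained peaks. For the other motifs, the shares follow for lost peaks, all common peaks and common peaks of the same pileups, in this order. An ETS site was found in 4.04% (2.92 to 5.57), 11.1% and 5.66%, and the letters of the CTCF core in 21.9% (19.3 to 24.8), 35.4% and 27.9%. The CCAAT box was found in 32.9%, 30.4% and 29.8%, and the AP-1 site TGANTCA in 5.43%, 4.65% and 7.01%. An E-box (CACGTG) was found in 5.08% (3.81 to 6.75), 7.52% and 7.39%. The cyclic AMP response element TGACGTCA was found in 0.577% (0.247 to 1.34), 1.65% and 0.651%, so that at equal pileup its share was within the interval of the lost peaks. GTTGCC, a half-site of the RFX family, was found in 9.58%, 11.8% and 10.8%. A GATA site (AGATAAG) was found in 2.77% (1.87 to 4.09), 1.69% and 2.54%, again within the interval at equal pileup. A nuclear receptor half-site (AGGTCA) was found in 12.9% (10.9 to 15.3), 12.9% and 15.8%. These are letters in a window, not bound sites.

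The strongest lost peak lay in an intron of *Cobl*, which encodes an actin nucleator, at chr11:12375030-12375285, with a fold of 17.8 and 94 fragments. It filled 1 row, 22.2% of its words were unique, and a gained cKO peak lay 3532 bp away. The next were both at a fold of 12.4 with 65 fragments and both fully unique. One covered the start of *A530083I20Rik*, a noncoding transcript, at chr9:122902753-122903537 on 2 rows. The other lay over the first part of *Lemd3*, which encodes an inner nuclear membrane protein that restrains SMAD signalling, at chr10:120977912-120979682 on 3 rows, with its centre 535 bp past the start. The CpG-rich promoter of *Ube2q2*, which encodes a ubiquitin-conjugating enzyme, had a peak at chr9:55148673-55150262 with a fold of 8.82 and 46 fragments on 2 rows. Its nearest cKO peak was 57875 bp away, that of *Lemd3* 53607 bp and that of *A530083I20Rik* 15133 bp. Also among the 10 strongest were peaks at *Gm15389*, *Ppp2r2b*, *Eif4h* and *Trim56*, all under 50% unique with folds of 5.82 to 6.94, and the unique *Mrgpra3* peak with a fold of 5.63.

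Of the 26 lost peaks with a fold of 5 or more, 10 were of unique sequence. These 10 were a share of 0.105% (0.0573 to 0.194) of the 9479 autosomal WT peaks that met both criteria. Besides the 5 whose sequences are shown, they included peaks at *Ace*, *2700054A10Rik*, *Tfap2c* and *Npr1*. None of the 26 had a cKO peak within 500 bp.

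The numbers in the peak names bear on these strong peaks. Names are numbered along every chromosome in both lists, so a skipped number is a peak that the naming library had and that is not among the rows analysed here. Between the cKO peaks that flank the lost peak, 3 numbers were skipped at *Lemd3*, and 2 each at *A530083I20Rik* and *Ube2q2*. The flanking cKO peaks stood 119658, 34605 and 226060 bp apart, and the place of the skipped peaks within these stretches is not given. In the stretch around *2700054A10Rik* 27 numbers were skipped. Of the 10 strong and unique lost peaks, 6 (60%; 31.3 to 83.2) had a skipped number in the stretch that held them. The median stretch around these 10 was 112054 bp. No number was skipped at *Cobl*, *Aqr* or *Mrgpra3*, so the cKO naming library had no further peak there. Over all lost peaks, 151 of 866 (17.4%; 15.1 to 20.1) had a skipped cKO number in the stretch that held them, and 9.22% (8.89 to 9.57) of all 28534 stretches between neighbouring autosomal cKO peaks had one. The stretches around lost peaks were longer, with a median of 55154 bp against 22705 bp, and no comparison at equal length was made. For gained peaks and WT numbers the share was 30.4% (29.6 to 31.2), against 12.7% (12.2 to 13.2) of all 18326 WT stretches, with medians of 97445 and 35669 bp.

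Promoter peaks of protein-coding genes were rarely lost. Of 8435 autosomal protein-coding genes with a WT promoter peak, 83 (0.984%) had a lost one. Peaks were placed by their centre, so the strong lost peaks that reach over the starts of *Lemd3* (fold 12.4) and *Mrgpra3* (5.63) are not counted here. At 54 of the 83 (65.1%; 54.3 to 74.4) no cKO peak touched the promoter window that held the lost peak, and at the other 29 a cKO peak lay beside the lost one within the window. Over all annotated starts of a gene, 37 of the 83 (44.6%; 34.4 to 55.3) had a cKO peak centred in a promoter, at the same or another start, and 46 had none. The 15 with the highest −log10 q were those of *Ube2q2*, *Aqr*, *Hipk4*, *2410141K09Rik*, *Adgra2*, *Dph7*, *Bcat1*, *Aig1*, *Irak3*, *Foxn3*, *Ckmt1*, *Itgad*, *Susd2*, *Zfp458* and *Mphosph8*, and no cKO peak touched the window of 12 of them. The exceptions were *Adgra2*, *Foxn3* and *Mphosph8*, whose nearest cKO peaks were 311, 523 and 148 bp from the lost peak. Of the 15 genes 5 had a cKO promoter peak at some start, among them *Hipk4* and *2410141K09Rik*, where no cKO peak touched the window of the lost peak.

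*Aqr*, which encodes a helicase of the spliceosome, had a lost peak at chr2:114175113-114175447 with a fold of 5.07 on 2 rows, 3 bp from the start and 25825 bp from a cKO peak. *Hipk4*, a kinase gene needed for the shaping of sperm heads, had one at chr7:27523132-27523432 with a fold of 4.88 on 1 row, 2772 bp from a cKO peak. At *Bcat1*, which encodes a branched-chain aminotransferase, the peak at chr6:145035541-145036056 had a fold of 4.13 on 1 row, and the nearest cKO peak was 101976 bp away. *Aig1* had a peak at chr10:13868703-13869060 with a fold of 3.94, and it was the only one of the 15 besides *2410141K09Rik* on 3 rows. *Irak3*, which encodes a brake on Toll-like receptor signalling, and *Dph7*, an enzyme gene of the diphthamide pathway, had folds of 3.94 and 4.13 with cKO peaks 6228 and 644 bp away. *Ckmt1* (mitochondrial creatine kinase), *Itgad* (an integrin), *Susd2*, *Zfp458* (a zinc-finger gene) and *Mphosph8*, which encodes a HUSH complex subunit that binds methylated histone H3, all had folds of 3.75 with 19 fragments at the summit.

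**Figure D3:**
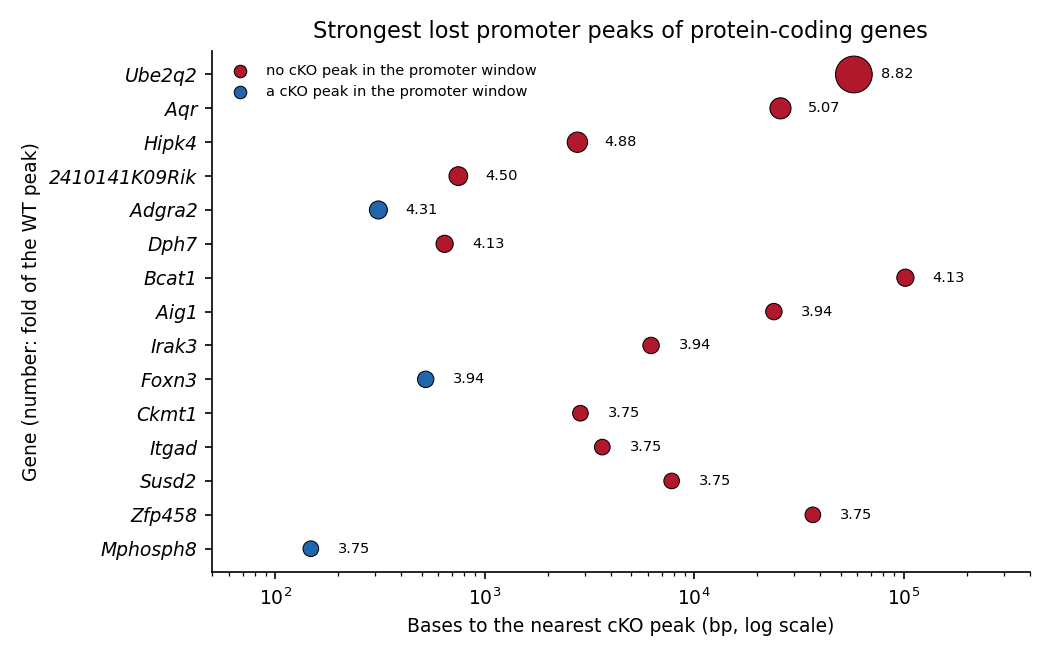
Bases from the lost peak to the nearest cKO peak (x axis, log scale) for the 15 protein-coding genes (y axis) whose lost promoter peaks had the highest −log10 q. Marker area grows with the fold of the WT peak, which is printed beside it, and colour shows whether any cKO peak touches the same promoter window. *Ube2q2* has the highest fold (8.82) and *Bcat1* the most distant cKO peak (101976 bp).

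Lost peaks that were both unique and on 3 or more rows numbered 49, a share of 0.383% (0.290 to 0.505) of the 12808 such WT peaks. Their median fold was 3.38, 6 lay in promoters, and 18 had a cKO peak within 500 bp. Those of fully unique sequence with the highest −log10 q were, after *Lemd3*, at *Slc16a3* (a lactate transporter gene; fold 4.50), *Flywch1* (4.50), *Enah* (an actin regulator gene; 4.31) and *Aig1* (3.94). A gained cKO peak lay 75 bp from the *Slc16a3* peak and 905 bp from the *Flywch1* peak, and a common one 313 bp from the *Enah* peak.

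Over all 20780 autosomal protein-coding genes, 477 (2.30%) had a lost peak in their body or promoter. The lists of pachytene markers, recombination, piRNA and spermatid genes held 66 genes together, of which 1 (1.52%) had a lost peak, a share near that of all genes. Lists as short as these would hold few at that share, and nothing is read from the zeros. None of the 15 pachytene markers had a lost peak, and 10 of the 15 had a promoter peak in each list. None of 20 genes of meiotic recombination and DNA damage response, 9 genes of histone H3.3 and its chaperones, 18 Polycomb genes, 15 spermatid genes, 39 *Hox* genes, 67 histone genes or 75 ribosomal protein genes did either. Of 18 piRNA pathway genes 1 did, *Tdrd1*, in an intron with a fold of 3.19. Of 25 SWI/SNF genes 1 did, *Arid1b*, the paralog of *Arid1a*, in an intron with a fold of 3.38 in sequence that was 35.7% unique. The *Arid1b* peak filled 2 rows, and its nearest cKO peak was 50134 bp away. Of 15 spermatogonial markers 1 did, *Nanos3*, with a fold of 3.19 and a gained cKO peak 145 bp away. Other homeobox and paired-box genes had lost peaks at *Pax9* (3.56) and *Nkx1-1* (3.0), 2 of 64, and olfactory and vomeronasal receptor genes at *Olfr15* (3.19) and *Vmn2r7* (2.81), 2 of 1411.

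Of 18 markers of somatic testis cells 3 had lost peaks, and of all autosomal protein-coding genes 2.30% did. *Gata4*, a transcription factor gene of Sertoli and Leydig cells, had a lost promoter peak at chr14:63245128-63245770 with a fold of 3.19 on 2 rows, and its nearest cKO peak was 66527 bp away. *Amh*, the Sertoli cell gene of anti-Müllerian hormone, had one at chr10:80804177-80804596 with a fold of 3.19 on 1 row, inside the neighbouring gene *Sf3a2*, and a common cKO peak lay 57 bp away. *Star*, which encodes the cholesterol carrier of steroid synthesis, had 2 lost intron peaks with folds of 3.0 and 3.75, each on 1 row. A common cKO peak lay 476 bp from the first and a gained cKO peak 1457 bp from the second. Each list had a promoter peak at 4 of the 18 markers, but not at the same 4. Of the 4 in the WT list 2, *Gata4* and *Amh*, had a lost one and no cKO promoter peak. Over all protein-coding genes with a WT promoter peak, 0.984% had a lost one. Other markers of the 18 had a promoter peak in the cKO list alone. The cells came from pooled Sta-Put fractions that the study chose by light microscopy as mostly, not wholly, pachytene spermatocytes. The part of somatic cells in these peaks was not tested. In a mixed sample, fewer cells of a type and less open DNA per cell cannot be told apart. Of 358 *Zfp* zinc-finger genes 7 had lost peaks (1.96%, against 2.30% of all genes). Of the 200 with a WT promoter peak 3 had a lost one (1.5%, against 0.984%), *Zfp458* (3.75), *Zfp954* (3.38) and *Zfp93* (3.19). All 19 lost peaks in listed genes had folds of 3.94 or less, and the one at 3.94, in *Zfp101*, was 6.38% unique.

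The distance to the nearest cKO peak spread widely. The median was 7123.5 bp (5395 to 9034), the 25th percentile was 554 bp, and the farthest lay at 952071 bp. A cKO peak lay within 100 bp of 79 lost peaks (9.12%; 7.38 to 11.2) and within 500 bp of 204 (23.6%; 20.9 to 26.5). Gained peaks lay within 500 bp of a WT peak in 3.20% of cases (2.90 to 3.53), a lower share. The lists differ in density, with 30244 cKO and 19309 WT peaks, and no comparison at equal density was made. Intervals that were cut, as described above, were not left out. Just inside the criterion 6 lost peaks were under 10 bases from a cKO peak, 1 of them directly adjacent, and just outside it 29 common peaks shared under 10 bases, 5 of them a single base. Of the 260 lost peaks within 1 kb of a cKO peak, 83.5% (78.5 to 87.5) were unique and their median fold was 3.19. Of the 127 at 100 kb or more, 35.4% (27.7 to 44.1) were unique, 61.4% were intergenic, and their median fold was 3.56. The peaks most remote from cKO peaks were thus mostly in repeated sequence, with a median of 100% of their bases in annotated repeats.

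**Figure D4:**
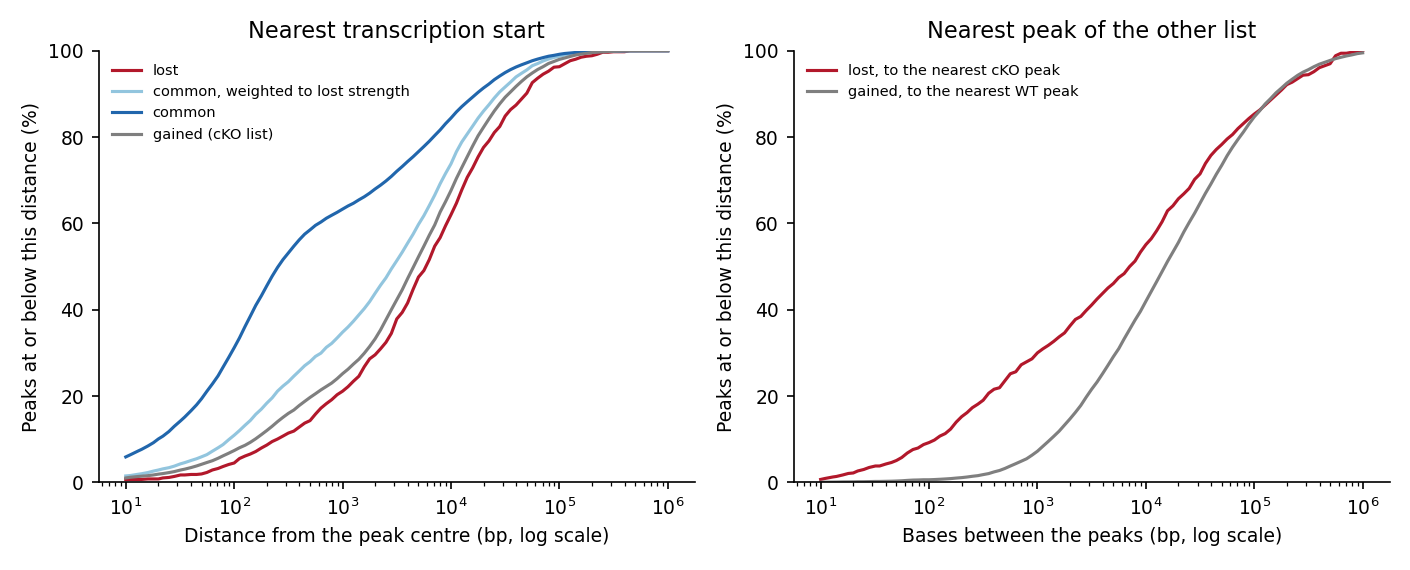
Cumulative share of peaks (y axis, %) by distance in bp (x axis, log scale), from the peak centre to the nearest transcription start (left; lost, common weighted to the pileups of the lost peaks, common, gained) and to the nearest peak of the other list (right; lost and gained). The lost curve is the farthest right on the left, with a median of 5826.5 bp, and on the right it starts earlier than the gained curve, with 23.6% against 3.20% within 500 bp.

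One locus stood apart. On chromosome 7, 12 lost peaks lay within 26650 bp at chr7:47583959-47610608, over and around *Mrgpra3*, which encodes a receptor for itch in sensory neurons, and toward the pseudogene *Mrgprc1-ps*. They were the only WT peaks there: the next WT peak was 532895 bp before and 693642 bp after the group, and the nearest cKO peaks were 532322 bp before and 693425 bp after it. The cKO peaks on either side carried the numbers 28116 and 28117, so the cKO naming library had called nothing between them. The 12 folds ran from 3.19 to 5.63 with a median of 3.75, and the widths from 21 to 2171 bp, for 9884 bp in all. The strongest, at chr7:47599306-47601476, filled 4 rows with a fold of 5.63 and covered the *Mrgpra3* start, which lay 981 bp from its centre. The peak at chr7:47603402-47605516 filled 5 rows with a fold of 4.13, and 3 others filled 3 rows. Of the 12, 4 filled 1 row and 3 filled 2. All 11 that were long enough to judge were unique, with at least 87.9% of words occurring once, and their G or C content was low, from 37.7 to 46.7%. They were 12 of the 127 lost peaks at 100 kb or more from a cKO peak.

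**Figure D5:**
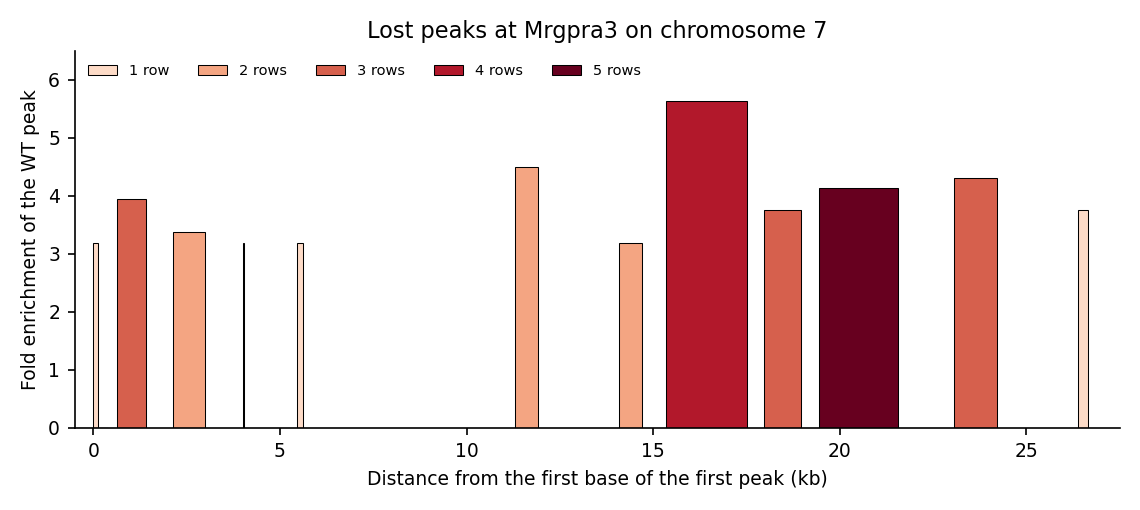
Fold enrichment (y axis) of the 12 lost WT peaks at *Mrgpra3*, drawn to scale along the chromosome in kb from the first base of the first peak (x axis). Colour gives the rows a peak fills, from 1 to 5. The highest fold, 5.63, and the most rows lie between 15 and 22 kb.

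Elsewhere lost peaks were mostly single. With lost peaks under 50 kb apart taken as a group, 721 stood alone, 52 groups held 2, 7 held 3, 2 held 4 and 1, at *Mrgpra3*, held 12. Over all lost peaks, the nearest WT neighbour was itself lost in 73 cases (8.43%; 6.76 to 10.5), against 4.68% (4.38 to 5.0) for common peaks. The 73 include all 12 peaks at *Mrgpra3*, which were the only WT peaks there. A run of zinc-finger genes and pseudogenes on chromosome 13 held 3 of the groups, with 3 of 5, 3 of 12 and 4 of 10 WT peaks lost between positions 66270295 and 66733148. None of the group of 4 there was unique, and their nearest cKO peaks were 519 to 7755 bp away. At *Gm26754*, the lincRNA gene that spans part of this run, 6 lost peaks had folds of 3.19 to 4.50. The other genes with 3 or more were *Mrgpra3* and *Gm20388* (4 each), *Fam155a* and *St6galnac3* (3 each), the last of which encodes a sialyltransferase. Outside *Mrgpra3*, the peaks of these genes lay in no group of 3 or more. Those of *Gm20388* were scattered, with 1 at chr8:122273272-122273322 and another at chr8:123336660-123336749. By chromosome the lost share ran from 3.28% on chromosome 9 (33 of 1005) to 6.35% on chromosome 13 (45 of 709), and for 17 of the 19 autosomes the interval held the share of all autosomes, 4.72%.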

How the data were processed

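The data were 1 ATAC-seq peak list for each genotype, *Arid1a* WT and *Arid1a* cKO. Per the labels and the study's methods, the authors made Omni-ATAC libraries, trimmed reads with Trim Galore, aligned them to mm10 with Bowtie2, removed duplicates with Picard, called peaks per library with MACS2, removed blacklisted regions and intersected the replicates. The fold enrichment, as deposited, is the linear ratio of summit pileup to background. A deposited −log10 q value scores it (the −log10 p beside it, which gives the same order, was not used), and another deposited column (unit other) gives the summit offset. Which library named the peaks is not given in the sources used here. Depth is known only as the background recovered from the spacing of the fold values, and the depth of the other libraries is unknown.

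Rows were collapsed by peak name. A single shared base made a WT peak common. Centres were annotated with GENCODE vM21 (GRCm38, the build of mm10). Words of 50 bases, every 25 bp, were counted on both strands of the RefSeq GRCm38.p6 chromosomes. Shares have 95% Wilson intervals and medians order-statistic intervals (Python 3.11.15, scipy 1.17.1); these cover counting error only. Common peaks were weighted so that their summit pileups matched those of the lost peaks. The scripts were tested on simulated data. Named peaks were the 10 lost peaks with the highest −log10 q, the 15 highest in protein-coding promoters, the 5 highest of fully unique sequence on 3 or more rows, all in listed genes, and genes with 3 or more. Sequences were limited to stretches outside untranslated regions, and 1 of the strongest peaks is not reported here. Members, gene lists and motifs were chosen with earlier results of these data known; further peaks, loci and the skipped numbers were singled out after their values were seen.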

Additional observations from a re-analysis of the deposited data

How the results depend on the processing

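In all, 74 values were recomputed under 14 alternative settings. Of these, 38 stayed within the interval of the reported value, or within 1.5 times for the count, and 36 moved. The cause of a move was not tested beyond the construction of each alternative. Calling a peak common only where cKO peaks cover at least 50% of it gave a lost share of 6.70%, a median width of 355 bp and a median cKO distance of 907 bp. Requiring no cKO peak within 500 bp gave 3.61%, a distance of 7517 bp to a start and 15111.5 bp to a cKO peak. WT peaks at a −log10 q of at least 5 left 230 lost peaks (1.60%), with a median fold of 3.94, a width of 405.5 bp, 8344.5 bp to a start and 16396.5 bp to a cKO peak. WT peaks on 3 or more rows left 85 (0.615%), with 3.56, 555 bp, 4640 bp and 15711 bp, respectively. Against cKO peaks at a −log10 q of at least 5, 1739 peaks were lost (9.48%), with a width of 358 bp and a cKO distance of 13493 bp. Taking each row as an interval gave 1426 lost rows (2.86%) with a median width of 299 bp. WT peaks of unique sequence gave 554 (3.37%), a promoter share of 16.2%, 3720.5 bp to a start and 2595 bp to a cKO peak. Promoters of 3000 bp on either side of a start gave a promoter share of 36.5%, any base in a promoter 16.1%, and protein-coding genes alone 9.35% with 11333 bp to a start. WT peaks at least 100 bp wide, chosen after seeing the data, gave a lost share of 4.37% and a width of 335 bp. Merging overlapping rows, and leaving out the *Mrgpra3* locus (chosen after seeing the data), moved none of the 7 summary values.

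No paired analysis was possible because each genotype is represented by 1 peak list, in which the 4 numbered libraries are not separate, and for the same reason no library could be left out. Single lost peaks near the detection limit of 13 fragments had few fragments in the naming library, the only one whose pileup is known. Each of them also overlapped a peak of at least 1 other WT library. At this depth a lost peak cannot be told from one just under the threshold of the cKO calls.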
